A study of Homo sapiens with 4 samples.

Results

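The fatty acid synthesis, elongation and storage genes were a list of 39 human genes that make fatty acids, lengthen them, activate them to acyl-CoA, build triglycerides from them, hold them in lipid droplets and pass them into mitochondria. Members were taken by gene symbol from the array annotation, and the desaturases were not part of the list. Of the 39 genes, 36 could be measured, by 82 of the 54613 probe sets on the array. They make up 36 of the 19775 genes tested. ELOVL1, ACSL3 and AGPAT3 had no probe set with that gene as its only annotated symbol and were not analysed here.

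The cells were of NUGC3, a long-established line from a human gastric cancer. Total RNA was hybridised to 4 single-colour Affymetrix arrays, 2 of cells labelled PRMT6 wild type (control) and 2 of cells labelled PRMT6 knockout, both grown without any other treatment named in the labels. PRMT6 is a protein arginine methyltransferase that marks arginine 2 of histone H3, and the series asked how its loss alters transcription in gastric cancer cells. The knockout used a lentiviral vector carrying Cas9 and 1 guide, then puromycin and cloning by limiting dilution. The labels state neither the number of clones behind the knockout arrays nor whether control cells received a vector. Separate cultures for the 2 arrays of a group are not stated either, and every p-value here therefore reflects just the array-to-array spread, which may be technical. The guide is shown because it defines the knockout, in the 5′ to 3′ direction as the labels give it, with no letters marked.
PRMT6 guide: gacggtactggacgtgggcg

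Cells make fatty acids from cytosolic acetyl-CoA, which is carboxylated to malonyl-CoA and condensed into palmitate, a route under the control of the sterol-regulated transcription factor SREBP-1. Elongases then add carbon units, acyl-CoA synthetases activate the product, and a series of acyltransferases and phosphatases joins acyl chains to glycerol to form triglyceride, which is stored in droplets. Many carcinomas, gastric cancers among them, are known for active fatty acid synthesis.

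Expression values are RMA log2 values, so a difference of 1 is a doubling, and fold changes are knockout over control. PRMT6 itself read 7.66 on both control arrays and 6.87 and 6.91 on knockout replicates 1 and 2. Both knockout values lay below both control values, with a log2 fold change of -0.77 (SE 0.073) that missed the threshold over all genes (limma adjusted p = 0.0502; 0.00311 to 0.86 over the alternative settings, with a call under 5 of 10). The settings with the replicate block or an array left out called no gene at all. The lack of a call there is not particular to PRMT6. Because an edit need not remove a transcript, PRMT6 mRNA is a partial check of the labels. Across arrays the median lay between 4.73 and 4.77, and control replicate 2 had an upper quartile of 6.62, where the others had 6.77 to 6.79. Over all genes the control arrays correlated at r = 0.995 and the knockout arrays at r = 0.998. The 6 epithelial markers fixed for checking the cells (EPCAM, CDH1, KRT8, KRT18, KRT19 and CLDN4) all lay above the median of all values, with array means of 11.53 to 11.61. The lists of fibroblast, leukocyte, endothelial, adipocyte and hepatocyte markers had array means between 3.82 and 4.69. Of their 29 measured genes, 12 lay above the median of all values. Their highest single values ran from 5.65 (leukocyte) to 7.52 (fibroblast), so a gene above that median may still read background. The fibroblast markers averaged 4.69 on control replicate 2 against 4.24 to 4.29 on the other arrays. The endothelial (4.48 against 4.19 to 4.28) and leukocyte lists (3.99 against 3.82 to 3.84) were highest there too. So were the hepatocyte (4.47 against 4.39 to 4.44) and adipocyte lists (4.40 against 4.33 to 4.36). That array also had the highest lower quartile of all values (3.29 against 3.21 to 3.22). Its epithelial markers averaged lowest (11.53 against 11.57 to 11.61). The part of these differences in the results below was not tested.

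In the knockout, most enzymes that supply and build new fatty acids read slightly higher, and the early steps of triglyceride assembly were split between higher and lower genes. Every difference was small. Of the 36 measured genes, 0 passed the test over all genes (limma, Benjamini-Hochberg adjusted p under 0.05, n = 2 arrays per group), where 0.475% of all genes passed; the smallest adjusted p among the members was 0.199. Before adjustment, 7 members (19.4%; 6.12% of all genes) were higher and 2 members (5.56%; 5.83% of all genes) were lower with p under 0.05. The higher ones were FASN, ACLY, ACSS2, ELOVL5, ACSL1, ACSL4 and DGAT2, and the lower ones GPAM and AGPAT2. Log2 fold changes ran from -0.32 (THRSP) to 0.43 (FASN), so 0 members reached a difference of 0.5 in size (722 of 19775 over all genes). The median size, whatever the sign, was 0.17, beside 0.11 over all genes. Of the members, 19 were positive and 17 negative (9362 and 10408 over all genes). The median log2 fold change of the members was 0.033, beside -0.0091 over all genes. The median was 0.012 after quantile normalization and 0.010 after cyclic loess normalization of the deposited values, while that of all genes moved to -0.021 and -0.014.

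In 15 members the lower knockout value exceeded the higher control value (41.7%; 21.7% of all genes), in 7 both knockout values were the lower ones (19.4%; 21.6% of all genes), and in 14 the groups overlapped. In 16 of the 36 members the 2 control arrays differed from each other by more than knockout differed from control (11617 of 19775 over all genes). In 10 members the 2 knockout arrays did (8611 of 19775 over all genes). The 9 members at an unadjusted p under 0.05 became 13 without control replicate 1 (24.7% of all genes), 11 without control replicate 2 (12.7%), 2 without knockout replicate 1 (5.05%) and 0 without knockout replicate 2 (4.82%), so the share over all genes moved in the same order. A prior that follows the mean level in limma called 2 members, ELOVL5 (adjusted p = 0.00832) and ACLY (adjusted p = 0.0415), where it called 4.03% of all genes. Over the other alternative settings the adjusted p of ELOVL5 lay between 0.13 and 0.977 and that of ACLY between 0.188 and 0.977. An exact two-sided permutation test of these 4 arrays cannot give a p below 0.333.

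**Figure D1:**
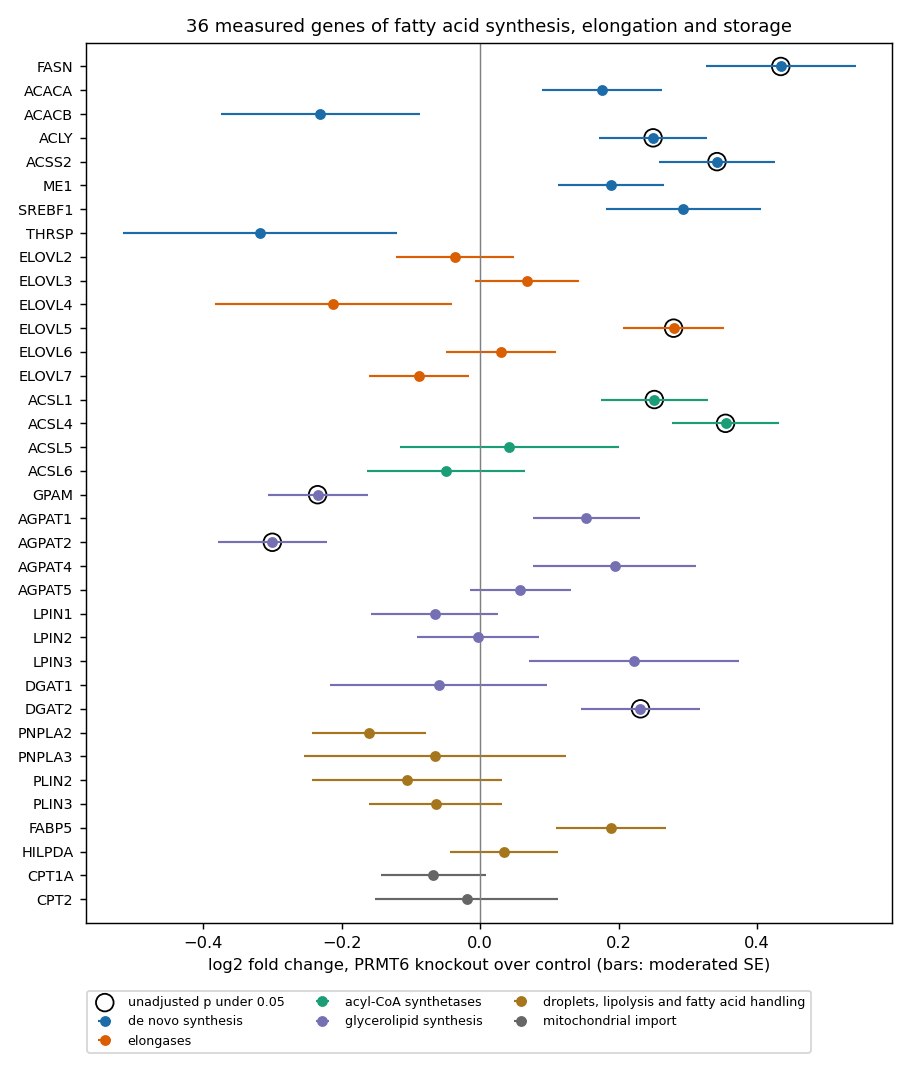
Log2 fold change of knockout over control for each of the 36 measured genes, 1 gene per row, coloured by role, with the moderated SE as bars and a ring around the 9 genes at an unadjusted p under 0.05. Points run from -0.32 (THRSP) to 0.43 (FASN), with most of the de novo synthesis genes to the right of 0.

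The promoters of 4 members at an unadjusted p under 0.05 are shown, 3 that read higher (ACLY, ELOVL5, ACSL4) and 1 that read lower (AGPAT2), to set the sequence beside the direction of each. Each is the 250 bases before the RefSeq start on build GRCh38.p14, read 5′ to 3′ on the minus strand, which is the strand of each of these genes. They lie at chr17:41919023-41919272 (ACLY, the more upstream of 2 starts), chr6:53348951-53349200 (ELOVL5), chrX:109733258-109733507 (ACSL4) and chr9:136687458-136687707 (AGPAT2). Capitals mark matches on either strand to 4 motifs, which are TCACNCCAC (the core of a sterol response element), CCAAT (bound by nuclear factor Y), CACGTG (an E-box) and GGGCGG (a GC box).
ACLY: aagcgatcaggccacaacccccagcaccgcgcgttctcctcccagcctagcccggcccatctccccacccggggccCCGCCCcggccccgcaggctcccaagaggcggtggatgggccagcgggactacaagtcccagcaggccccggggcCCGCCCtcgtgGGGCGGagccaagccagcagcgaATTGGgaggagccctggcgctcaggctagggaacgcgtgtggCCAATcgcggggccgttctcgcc
ELOVL5: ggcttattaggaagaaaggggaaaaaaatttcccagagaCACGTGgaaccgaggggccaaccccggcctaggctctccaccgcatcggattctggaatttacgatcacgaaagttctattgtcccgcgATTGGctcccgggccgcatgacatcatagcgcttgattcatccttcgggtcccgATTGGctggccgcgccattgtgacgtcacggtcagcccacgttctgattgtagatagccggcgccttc
ACSL4: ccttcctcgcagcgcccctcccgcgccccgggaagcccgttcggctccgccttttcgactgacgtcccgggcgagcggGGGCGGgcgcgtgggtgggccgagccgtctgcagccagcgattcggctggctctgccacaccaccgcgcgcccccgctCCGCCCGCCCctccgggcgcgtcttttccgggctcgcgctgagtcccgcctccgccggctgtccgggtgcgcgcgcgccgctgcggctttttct
AGPAT2: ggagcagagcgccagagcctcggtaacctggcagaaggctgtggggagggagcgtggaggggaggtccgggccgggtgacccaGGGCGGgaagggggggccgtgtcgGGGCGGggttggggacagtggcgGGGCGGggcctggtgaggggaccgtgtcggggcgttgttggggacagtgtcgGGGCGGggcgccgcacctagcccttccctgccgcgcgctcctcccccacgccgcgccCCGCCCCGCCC

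The ACLY window held 2 CCAAT boxes and 3 GC boxes, and that of ELOVL5 held 2 CCAAT boxes and 1 E-box. The ACSL4 window held 3 GC boxes and that of AGPAT2 held 6, the last 2 of which overlap, as do 2 of those of ACSL4. Promoter entries were found for 31 of the 39 listed genes, in 55 windows. CCAAT was present in 34.5% of these windows and in 32% of all 35116 windows of the same length, CACGTG in 7.27% and 6.34%, GGGCGG in 63.6% and 42.6%, and TCACNCCAC in 5.45% (3 windows) and 0.883%. A match is a description of letters and not of a bound site.

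The de novo synthesis genes had 8 measured members, of which 6 were positive and 2 negative, with a median log2 fold change of 0.22 and 0 that passed the test over all genes. In none of the 8 did the groups overlap, 6 with knockout higher (21.7% of all genes) and 2 with knockout lower (21.6%). The 2 lower ones, ACACB and THRSP, were separate only just. Their nearest control and knockout values were 6.48 and 6.45 for ACACB and 4.9004 and 4.8975 for THRSP. FASN, the fatty acid synthase that builds palmitate, read 7.45 and 7.23 on control replicates 1 and 2 and 7.83 and 7.72 on knockout replicates 1 and 2. Each knockout array was above each control array, and the log2 fold change was 0.43 (SE 0.11, 95% interval 0.15 to 0.72), or 1.35-fold, with limma adjusted p = 0.252. Its dimmer second probe set gave -0.12, so the 2 probe sets of FASN had opposite signs, and their mean gave 0.16.

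ACLY, the ATP citrate lyase that makes cytosolic acetyl-CoA from citrate, read 9.83 and 9.92 in control and 10.10 and 10.14 in knockout. The groups were separate, with 0.25 on the log2 scale (SE 0.079, adjusted p = 0.341), and the other probe sets of ACLY gave 0.41 and 0.38. ACSS2, which makes acetyl-CoA from acetate, read 7.56 and 7.52 in control and 7.82 and 7.94 in knockout. Its only probe set gave 0.34 (SE 0.084, adjusted p = 0.248), again with no overlap. ACACA, the carboxylase that commits acetyl-CoA to fatty acid synthesis, read 8.61 and 8.55 in control and 8.68 and 8.82 in knockout. Its log2 fold change was 0.18 (SE 0.087, adjusted p = 0.515), or 0.11 without knockout replicate 2, and its second probe set gave 0.037.

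SREBF1, the gene of SREBP-1, read 6.97 and 6.72 in control and 7.17 and 7.11 in knockout. The log2 fold change was 0.29 (SE 0.11, adjusted p = 0.422), and the gap of 0.25 between the control arrays was nearly as large. It was 0.17 without control replicate 2 and 0.17 with the mean of both probe sets. ME1, the malic enzyme that yields NADPH for the synthase, gave 0.19 (SE 0.076, adjusted p = 0.444), with 0.33 on its second probe set and -0.079 on a dim other one. The 2 negative genes of this role were ACACB, the carboxylase isoform of mitochondria that limits fatty acid import, and THRSP, a thyroid hormone responsive regulator of lipid synthesis. ACACB read 6.48 and 6.85 in control and 6.45 and 6.43 in knockout, and all 7 of its probe sets were negative (-0.23 to -0.014). THRSP read 4.90 and 5.45 in control and 4.90 and 4.82 in knockout. In both, control replicate 2 was the high array, and the gap between the control arrays exceeded the difference between the groups. Without control replicate 2 the log2 fold changes were -0.043 for ACACB and -0.044 for THRSP.

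**Figure D2:**
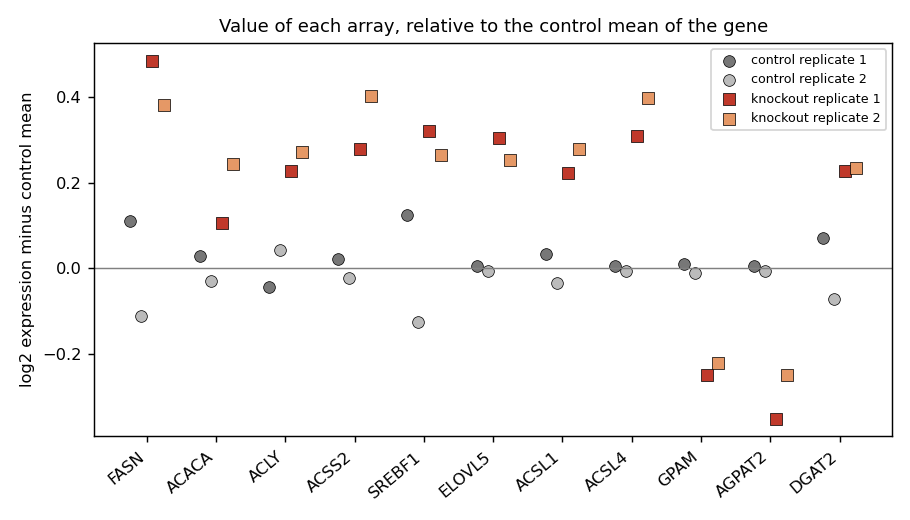
Log2 expression on each of the 4 arrays minus the control mean of the same gene, for the 9 members at an unadjusted p under 0.05 and for ACACA and SREBF1; circles are control and squares knockout arrays. In each of the 11 genes the squares lie on one side of both circles, below them for GPAM and AGPAT2, and the circles of FASN and SREBF1 lie farthest apart.

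Of the 6 measured elongases, 3 were positive and 3 negative, with a median of -0.0030 and 0 passing the test. ELOVL5, which lengthens polyunsaturated fatty acids, read 10.91 and 10.90 in control and 11.21 and 11.16 in knockout. The groups did not overlap, the log2 fold change was 0.28 (SE 0.073, 95% interval 0.084 to 0.47, adjusted p = 0.269), and all 4 of its probe sets were positive (0.084 to 0.28), with 0.16 as their mean. ELOVL6, which lengthens palmitate and is known as a target of SREBP-1, read 9.16 and 9.06 in control and 9.17 and 9.13 in knockout. Its difference of 0.030 had a 95% interval of -0.18 to 0.24, and its other probe sets gave -0.21 and -0.094. ELOVL7, an elongase of very long saturated chains, gave -0.088 (SE 0.072) with separate groups. ELOVL2, ELOVL3 and ELOVL4, known from liver, skin and retina, had means at or below the median of all values, so their signal may be background (log2 fold changes -0.036, 0.068 and -0.21). Without control replicate 2, ELOVL4 gave 0.0031 and ELOVL2 gave 0.020.

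Acyl-CoA synthetases had 4 measured members, 3 positive and 1 negative, with a median of 0.15 and 0 passing the test. ACSL4, which prefers arachidonic acid and is known for its part in ferroptosis, read 5.81 and 5.80 in control and 6.12 and 6.21 in knockout. Control arrays were closely matched and the groups separate, with a log2 fold change of 0.35 (SE 0.077, 95% interval 0.15 to 0.56) and the smallest adjusted p of the 36 members (0.199). The other probe sets of ACSL4 were dim and gave 0.28 and -0.17, and the mean of its probe sets gave 0.16. Its leading probe set had a mean of 5.98, below the highest values of the endothelial (6.07) and hepatocyte (6.19) marker lists. ACSL1, the broad synthetase of fat and liver, read 8.06 and 7.99 in control and 8.25 and 8.30 in knockout. It gave 0.25 (SE 0.077, adjusted p = 0.330) with separate groups, and 0.41 on its second probe set. ACSL5 and ACSL6 had overlapping groups, with 0.042 (SE 0.16) and -0.049 (SE 0.11). The sign of ACSL5 turned with the mean of its probe sets (-0.10).

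Glycerolipid synthesis had 10 measured members, 5 positive and 5 negative, with a median of 0.027 and 0 passing the test. At the first step, GPAM, the mitochondrial enzyme that joins the first acyl chain to glycerol phosphate, read 7.34 and 7.33 in control and 7.09 and 7.11 in knockout. Both knockout values were lower, by -0.23 in log2 fold change (SE 0.072, adjusted p = 0.331), with -0.11 on the second probe set. At the next step, AGPAT2, the lysophosphatidate acyltransferase that is mutated in a congenital lipodystrophy, read 7.95 and 7.94 in control and 7.60 and 7.70 in knockout. It gave -0.30 (SE 0.079, 95% interval -0.51 to -0.090, adjusted p = 0.270), and its second probe set gave -0.29. The other measured members of that step were positive, on both probe sets of each gene. AGPAT1 gave 0.15 (SE 0.077), AGPAT4 0.19 (SE 0.12) and AGPAT5 0.058 (SE 0.073). On the brighter probe set of each the groups were separate, for AGPAT4 only just (knockout 6.77 and 6.53, control 6.39 and 6.53), and on its second probe set they overlapped. AGPAT4 gave 0.073 without knockout replicate 1 and 0.32 without knockout replicate 2, and AGPAT5 gave 0.17 with the mean of its probe sets. Whether these genes differ from AGPAT2 was not tested.

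The lipins, phosphatases that turn phosphatidate into diacylglycerol, showed small differences. LPIN1 gave -0.065 (SE 0.092), LPIN2 -0.0031 (SE 0.088) and LPIN3, a dim gene, 0.22 (SE 0.15), each with overlapping groups. LPIN3 gave 0.033 without control replicate 1 and 0.41 without control replicate 2. The second probe set of LPIN2 gave 0.30. LPIN1 lies on chromosome 2. Of the 20 nearest genes above the median level, 10 on each side from HPCAL1 to GEN1, 14 were negative, with a median log2 fold change of -0.18. Without that filter on level, 788 of 1309 genes on the chromosome and 10408 of 19775 over all genes were negative. The final step to triglyceride is carried out by DGAT1 and DGAT2. DGAT2, which is linked to newly made fatty acids, read 7.22 and 7.07 in control and 7.37 and 7.38 in knockout, and gave 0.23 (SE 0.086, adjusted p = 0.412) with 0.33 on its second probe set. DGAT1 read 7.68 and 7.26 in control and 7.40 and 7.41 in knockout. Its knockout arrays lay between the control arrays, and it gave -0.060 (SE 0.16), or 0.15 without control replicate 1.

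The storage, lipolysis and import genes gave small differences of both signs. Of the 6 droplet, lipolysis and fatty acid handling genes, 2 were positive and 4 negative (median -0.065), and 0 had an unadjusted p under 0.05. FABP5, the epidermal fatty acid binding protein, read 11.64 and 11.75 in control and 11.88 and 11.89 in knockout, with separate groups and a difference of 0.19 (SE 0.080, adjusted p = 0.461). FABP5 has processed pseudogenes of similar sequence, and whether its probe set reads them was not tested. PNPLA2, the triglyceride lipase ATGL, read 8.32 and 8.45 in control and 8.21 and 8.24 in knockout, with -0.16 (SE 0.083, adjusted p = 0.528) and -0.0097 on its second probe set, or -0.0997 without control replicate 2. HILPDA, a hypoxia-induced droplet protein that inhibits that lipase, gave 0.035 (95% interval -0.17 to 0.24). The droplet coat protein PLIN3 gave -0.064 (SE 0.096). PLIN2, the coat protein that is stabilised by stored lipid, and PNPLA3, a droplet hydrolase, had means below the median of all values, overlapping groups and differences of -0.11 (SE 0.14) and -0.065 (SE 0.19). Of the mitochondrial carnitine palmitoyltransferases, CPT1A, the gate of fatty acid oxidation, gave -0.068 (95% interval -0.27 to 0.13) and CPT2 gave -0.020 (95% interval -0.37 to 0.33).

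Of the 82 probe sets, 0 passed when all probe sets were tested (limma adjusted p under 0.05; 0.148% of all probe sets), and 14 had an unadjusted p under 0.05 (17.1%; 8.65% of all probe sets). Among the 28 genes with more than 1 probe set, 9 were positive on each, 7 negative on each and 12 had both signs. In that fit ACLY (3 of 3), ACSL1 (2 of 2) and AGPAT2 (2 of 2) were the genes with more than 1 probe set in which each probe set had an unadjusted p under 0.05.

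**Figure D3:**
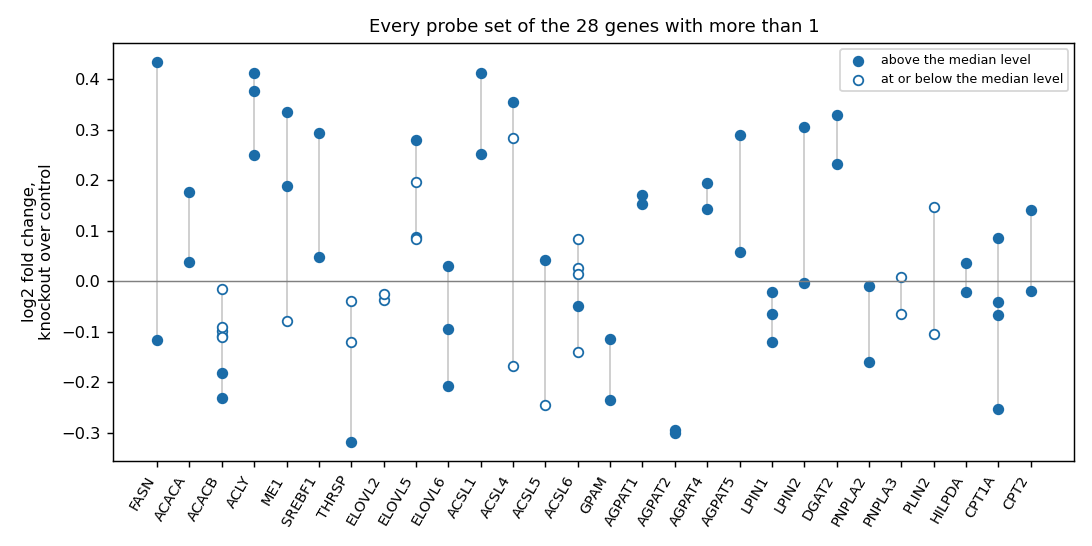
Log2 fold change of each probe set of the 28 genes with more than 1, a column per gene; filled points have a mean above the median of all values, open points at or below it. AGPAT2 (-0.30 and -0.29) has closely matched probe sets, while those of FASN lie at 0.43 and -0.12.

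The other genes of the pathway, 108 measured in 8 lists, likewise held 0 genes that passed over all genes, while before adjustment 7 had p under 0.05 and were higher (6.48%; 6.12% of all genes), and 10 were lower (9.26%; 5.83% of all genes). Of 17 regulators, 13 were positive (9362 of 19775 over all genes), with a median of 0.080. INSIG1, the sterol-responsive protein that holds SREBP in the endoplasmic reticulum, read 7.84 and 7.61 in control and 8.55 and 8.52 in knockout (log2 fold change 0.81, SE 0.10, adjusted p = 0.0831). Its paralog INSIG2 read 9.16 and 9.18 in control and 8.51 and 8.43 in knockout, which is -0.71 (SE 0.076, adjusted p = 0.0638). PPARG, the nuclear receptor that drives fat storage, read 7.07 and 6.65 in control and 5.48 and 5.57 in knockout, which is -1.33 (SE 0.16, adjusted p = 0.0754). INSIG1, INSIG2 and PPARG were called under 4, 5 and 4 of the 10 alternative settings (LIPT1 and ACSS1, described below, under 5 and 3). The settings with the replicate block or an array left out called no gene at all. The differences of INSIG1, INSIG2 and PPARG were larger than that of any of the 36 members.

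Among 8 genes that supply citrate, acetate or NADPH (median 0.041), ACSS1, the mitochondrial acetyl-CoA synthetase, read 5.48 and 5.50 in control and 6.13 and 6.21 in knockout (0.68, SE 0.077, adjusted p = 0.0664; 0.10 with the mean of its probe sets). MDH1 gave -0.41 and IDH2 0.11, the latter 0.029 without control replicate 2. All 5 partners of the elongases in the elongation cycle were positive (median 0.13; 9362 of 19775 over all genes), but 0 had an unadjusted p under 0.05 in limma. TECR gave 0.17 (0.10 with the mean of its probe sets), HACD2 0.14 and HSD17B12 0.13. HACD4 gave 0.056 (SE 0.098) with overlapping groups, at a mean level of 2.91 that may be background. Of 8 genes of mitochondrial fatty acid synthesis (median 0.014), LIPT1, a lipoyl transferase, gave -0.81 (adjusted p = 0.0503), HSD17B8 -0.22 and LIAS 0.17. HSD17B8 gave -0.081 without control replicate 1 and LIAS 0.064 without control replicate 2. Of 16 uptake and binding genes (median -0.017), DBI, the acyl-CoA binding protein, gave -0.28, SLC27A5 0.24 (0.12 with the mean of its probe sets) and FABP2 -0.25.

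Of 15 other glycerolipid acyltransferases (median -0.0095), GPAT3 gave -0.36, LPCAT2 0.40 and GPAT2 -0.23. LPCAT2 ranged from 0.16 without control replicate 2 to 0.63 without control replicate 1, and GPAT2 gave -0.13 without knockout replicate 2. Of 19 other droplet and lipolysis genes (median -0.064), PNPLA1 gave 0.35, PNPLA4 -0.26 (-0.15 with the mean of its probe sets) and AUP1 -0.17. PNPLA1, FABP2 and EHHADH had mean levels between 2.66 (FABP2) and 3.03 (EHHADH), below the median of all values, so their signal may be background; GPAT3 and GPAT2, at 4.49 and 4.54, were also below it. Of 20 genes of beta oxidation (median -0.064), 15 were negative (10408 of 19775 over all genes). ECI2 gave -0.34, ACADVL -0.28 and EHHADH 0.45 (0.27 without control replicate 2). Of the 14 listed genes on chromosome 2, which include INSIG2, LIPT1, MDH1, DBI, GPAT2 and AUP1, 11 were negative with a median of -0.20, against 43 of the 94 on other chromosomes with a median of 0.0084. Over all 1309 genes of chromosome 2 the median was -0.048. LPIN1 was the only measured member on that chromosome.

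**Figure D4:**
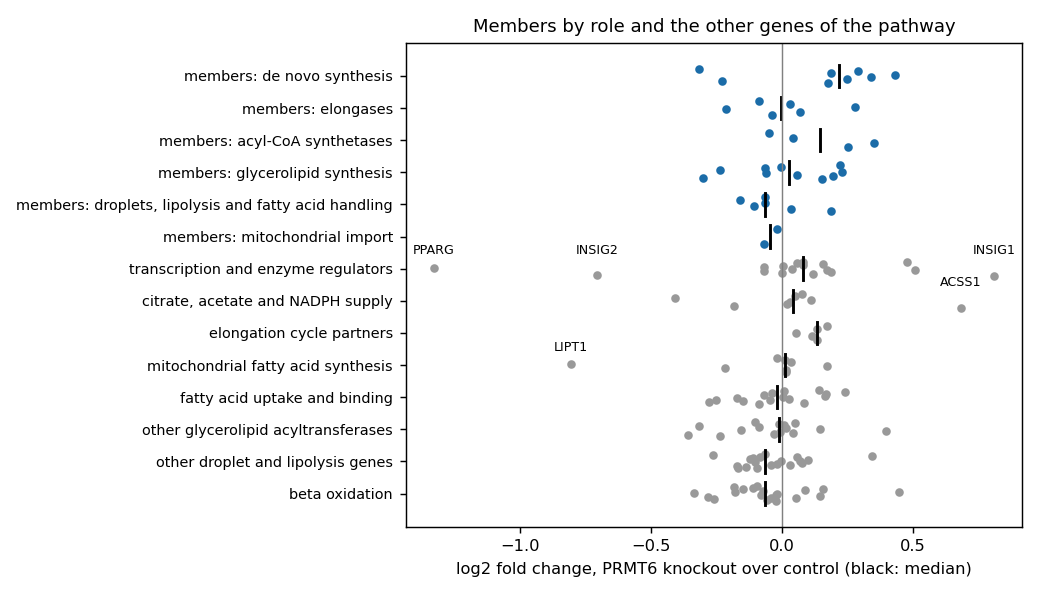
Log2 fold change of each gene, with the members by role in blue and the other genes of the pathway by list in grey, and the median of each row as a black bar; genes past 0.6 in size are named. The median of the de novo synthesis genes is 0.22, while those of beta oxidation and of the other droplet and lipolysis genes are -0.064.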

How the data were processed

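RNA of 2 control and 2 PRMT6 knockout samples of NUGC3 was compared. The authors deposited 1 log2 value for each probe set and array, computed with RMA in affy per the submitters' processing notes, which name no version or setting. RMA as usually defined sets arrays to a common distribution, which removes a change shared by most transcripts and compresses differences near background. Arrays have no read depth; their number limits the precision.

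Probe sets with 1 symbol (41091; several 1801, none 11721) were matched by gene ID to GRCh38.p14 names (41037), and the brightest probe set by 4-array mean stood for its gene. Knockout was compared with control by limma 3.58.1 (R 4.3.3; lmFit, eBayes, default settings, group as the only term, two-sided, Benjamini-Hochberg adjustment over all genes or all probe sets, threshold 0.05, prior degrees of freedom 2.48). Intervals are 95% intervals of that model. The steps were tested on simulated arrays with 2-fold and 4-fold changes, of which 63.2% and 93.7% were recovered. Changes as small as those of the members were not simulated. Alternatives were quantile and cyclic loess normalization, a filter at the median of all values (4.75), a prior with trend, the replicate number as a block, each array left out, and the mean of a gene's probe sets. Same-numbered arrays are not paired in the labels, and their deviations correlated at 0.094.

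The members, gene lists and motifs were chosen with earlier results of these data known. All members are named, as are PRMT6 and the 3 genes with the smallest p of each list. Values on every array are given for FASN, ACACA, ACLY, SREBF1 and members at an unadjusted p under 0.05, and for some others chosen after their values were seen. Promoter sequences come from RefSeq.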

Additional observations from a re-analysis of the deposited data

How the results depend on the processing

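No member passed per gene under 9 of the 10 alternatives. The block and the fits without an array called no gene at all, so the lack of calls there is not particular to the members. A prior with trend called 2 members and 1 of the 82 probe sets. Members at an unadjusted p under 0.05, 7 higher and 2 lower as reported, came to 11 higher with that prior, to 4 higher and 1 lower with the mean of all probe sets, and to 0 to 8 higher and 0 to 6 lower when single arrays were left out. The replicate block also gave 4 higher and 1 lower, with 0 members called (smallest adjusted p = 0.372 in limma) and 0 genes called. The block changed no member's call, and the replicate numbers are not a known pairing. Over all genes the number at an unadjusted p under 0.05 moved too. It was 2363 in the main fit, 2874 with the trend prior, 2178 with the mean of all probe sets and 1942 with the block.

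The members' median log2 fold change of 0.033 became 0.012 (quantile) and 0.010 (cyclic loess), and 0.012 to 0.075 with single arrays left out. The 94 genes called over the whole array became 195 (quantile), 231 (cyclic loess), 309 (above the median level), 797 (trend), and 0 with the block or with any array left out. The 81 probe sets called became 123 (cyclic loess), 167 (above the median level), 797 (trend), and 0 with the block or any array left out.

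Of 354 member values under the alternatives, 27 changed sign, in 13 members; 23 members kept theirs. With the mean of all probe sets ELOVL6 gave -0.091, ACSL5 -0.10, LPIN2 0.15, PLIN2 0.021 and CPT2 0.060. HILPDA gave -0.011 (quantile) and -0.0056 (cyclic loess), and ELOVL2 gave 0.010 (cyclic loess). With single arrays left out the ranges crossed 0 for ELOVL2 (-0.093 to 0.020), ELOVL4 (-0.43 to 0.0031), ELOVL6 (-0.020 to 0.081), ACSL5 (-0.13 to 0.22), ACSL6 (-0.18 to 0.077), LPIN1 (-0.15 to 0.019), LPIN2 (-0.076 to 0.069), DGAT1 (-0.27 to 0.15), PNPLA3 (-0.30 to 0.17), PLIN2 (-0.23 to 0.021), PLIN3 (-0.16 to 0.030), HILPDA (-0.0054 to 0.076) and CPT2 (-0.15 to 0.11). The cause was not tested. Dim genes, among them PLIN2, PNPLA3, LPIN3 and ELOVL2 to ELOVL4, lie at or below the median of all values, where RMA compresses differences. Of these, LPIN3 and ELOVL3 kept their sign under every alternative. Bright members changed sign too, such as ELOVL6 (mean level 9.13) and PLIN3 (9.84). Fits without an array assume that the lone array varies like the other group.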
